A study of Danio rerio with 2 samples.

Results

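Described here are 6 genes of the zebrafish vasculature, *fli1a*, *kdrl*, *cdh5*, *egfl7*, *tie1* and *drll.2*, out of 27771 genes counted in single cells of the embryonic tailbud. They were picked by symbol, with earlier results of these data known, and their levels were measured across blood, endothelial, lateral mesoderm and other classes of cells that were defined from other genes. Each of the 6 symbols matched 1 Ensembl gene (ENSDARG00000054632 for *fli1a*, ENSDARG00000105215 for *kdrl*, ENSDARG00000075549 for *cdh5*, ENSDARG00000100657 for *egfl7*, ENSDARG00000004105 for *tie1* and ENSDARG00000035150 for *drll.2*), and all 6 had unique molecular identifiers (UMIs, the tags that count single transcript molecules) in both libraries. The study asked how the loss of Stag2b, a variable subunit of the cohesin ring, affects cell types and transcription in the tailbud, the posterior end of the embryo from which trunk and tail tissues grow. There was 1 wild-type library and 1 library of *stag2b*-/- embryos, which carry the NZ207 allele and are described as homozygous. Both came from pools of tailbuds dissected from embryos at 16 h post-fertilization (hpf) and dissociated with collagenase and trypsin. The labels give the wild-type strain as AB where the methods give WIK, and the 2 sources also differ in the version of the droplet kit.

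Endothelial cells line the vessels, and in the zebrafish their first precursors arise in the lateral plate mesoderm beside the precursors of primitive erythrocytes and migrate to the midline to form the axial vessels. Etv2 is an early factor of the endothelial program, and Tal1 and Lmo2 act in both endothelial and blood precursors. Of the 6 genes, *fli1a* encodes an ETS transcription factor of the early hemangioblast lineage and *drll.2* a zinc-finger protein of the draculin family, whose founding member draculin marks lateral plate mesoderm and early blood. The genes *kdrl* and *tie1* encode receptor tyrosine kinases, the former for VEGF. The gene *cdh5* encodes VE-cadherin, the adhesion molecule of endothelial junctions, and *egfl7* a secreted EGF-domain protein deposited along vessels.

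The wild-type library held 303216340 UMIs over 18704 barcodes and the *stag2b*-/- library 393322847 UMIs over 26360, and after filtering 17469 and 23360 cells were kept with medians of 15302 and 13259.5 UMIs. A doublet caller had marked 4.46% and 9.98% of the barcodes, and 97 barcodes were shared by the kept cells of both libraries. The targeted gene *stag2b* was measured at 107 UMIs per 1e+06 (CPM) in the wild-type library against 59.6 CPM in the mutant one (−0.85 as a log2 ratio). Levels are UMIs summed over the cells of a class, as CPM of all UMIs of those cells, with exact 95% Poisson intervals. Ratios are log2 of *stag2b*-/- over wild type, their 95% intervals are those of an exact binomial for the split of a gene's UMIs, and shares have Clopper-Pearson intervals. All of these cover counting error only. With 1 library per genotype there was no replicate and no test, and the genotype and the library cannot be told apart. The median gene of a class had a log2 ratio between 0.021 and 0.085. TMM scaling, a trimmed mean over genes that allows for differences in RNA composition, moved all ratios of the vascular and blood classes by −0.15 to −0.17, and where this shift carries a ratio of 1 of the 6 genes, above the minimum level, across 0 or across the 1.5-fold limit, the scaled value is named below. Ratios of other genes are given before TMM scaling.

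Cells were assigned to classes by raw UMIs of marker genes other than the 6. The endothelial, erythroid, lateral and intermediate mesoderm gates asked for at least 3 UMIs of their genes and the other gates for 5. The endothelial gate was the sum of *etv2*, *sox7*, *sox18*, *she*, *erg*, *clec14a*, *ecscr* and *esama*. It was passed by 881 wild-type cells, 5.04% of those kept (4.72 to 5.38%), and by 1044 *stag2b*-/- cells, 4.47% (4.21 to 4.74%), so that the intervals touched. Only 172 and 170 of these cells passed no other gate, and they form the endothelial class. A further 338 and 443 cells also passed the erythroid gate (*gata1a*, *klf17*, *gfi1aa*, *epor*, *slc4a1a* and *tfr1a*), and 371 and 431 passed another gate, most often that of posterior paraxial mesoderm (263 and 301 cells). The erythroid class without the endothelial gate held 308 and 220 cells. Cells of the endothelial class were shallow in wild type, with a median of 8057.5 UMIs against 12380 in *stag2b*-/-. Cells that passed both the endothelial and the erythroid gate were deep, at 20720 and 17375 UMIs, beside 8290 and 9689 in the erythroid class. Whether some of them are pairs of cells in 1 droplet was not tested beyond the removal of called doublets.

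Among the endothelial gate genes, the early genes *etv2* and *sox7* had most of the UMIs in the endothelial class. In that class *etv2* reached 3613 CPM among wild-type cells and 2394 among mutant cells, and *sox7* reached 791 and 507 CPM. In wild type the class held 0 UMIs of the gate gene *erg*, an ETS factor of differentiated endothelium, which allows up to 1.58 CPM. In *stag2b*-/- it held 2 *erg* UMIs, and *sox18* had 35 and 28 UMIs in the class. The lateral mesoderm class (119 and 131 cells) rested almost entirely on *hand2*, with 2926 and 2156 UMIs, since *tbx20* had 7 and 27, *foxf1* 8 and 9, and *foxf2a* 1 and 0. Of the globin genes, which mark erythrocytes, the erythroid class held 30308 and 20451 CPM, the cells of both gates 14155 and 9455 CPM, and the endothelial class 145 and 57.8 CPM.

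In the endothelial class all 6 genes stood at least 4-fold above cells outside blood and endothelium, in both libraries. Of all genes of at least 50 CPM in this class, 6.98% in wild type and 5.97% in *stag2b*-/- reached that fold. The smallest wild-type fold was that of *kdrl*, 32.9 (28.3 to 38.1), and the largest that of *cdh5*, 1794 (1238 to 2693). Beyond this shared property the 6 genes differed in where else they were found, as the map of levels by class shows.

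**Figure D1:**
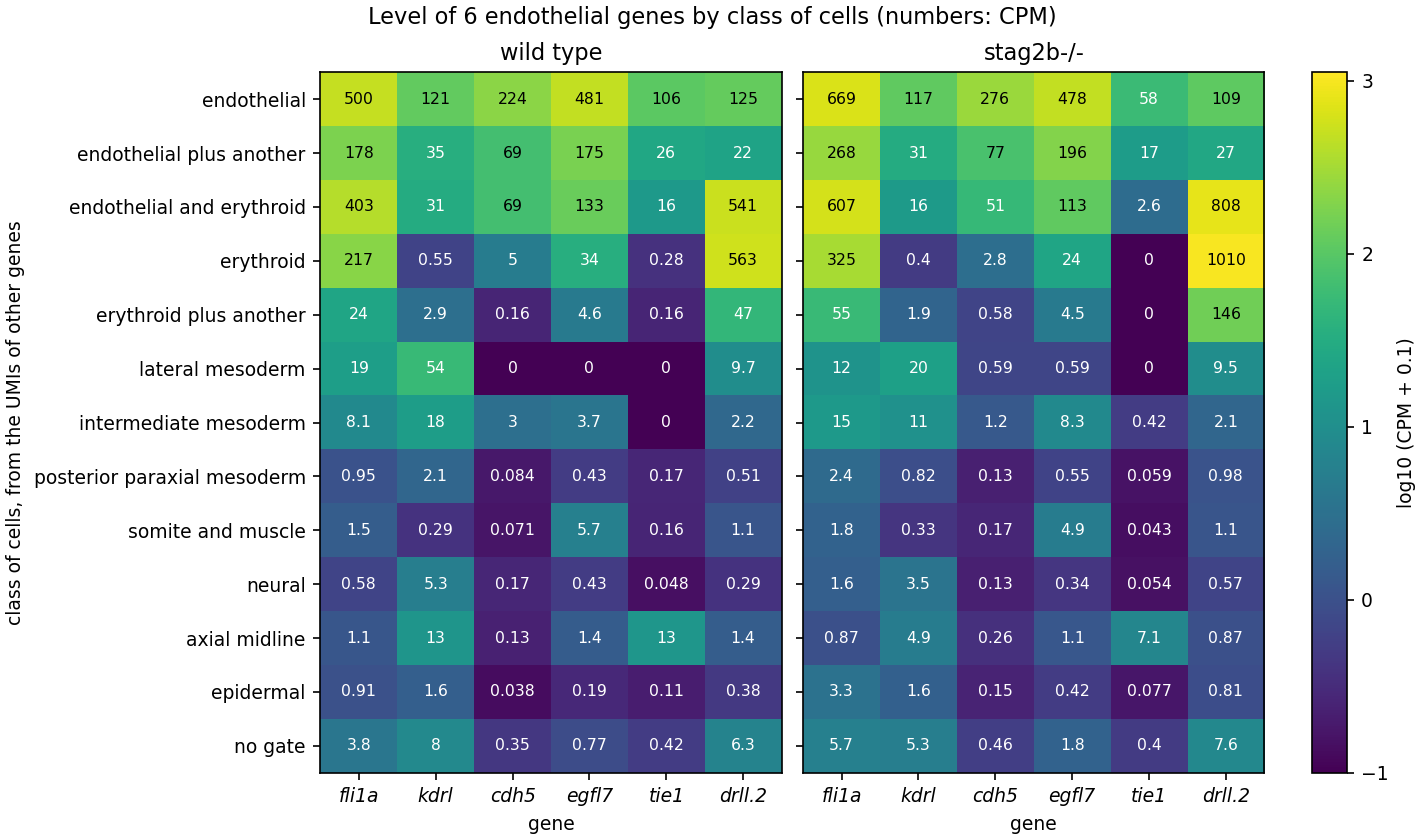
Level of each of the 6 genes (columns) in each of the 13 classes of cells (rows), in wild type (left) and *stag2b*-/- (right). Numbers are CPM and colors the log10 of CPM plus 0.1; all 6 genes are high in the endothelial class, *fli1a* and *drll.2* also in erythroid classes, *kdrl* in lateral mesoderm, and *tie1* in axial midline cells.

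The transcription factor gene *fli1a* was highest in the endothelial class, at 499.7 CPM in wild type (468 to 533) and 669 CPM in *stag2b*-/- (633 to 706). It was lower in cells of both gates, at 403 (388 to 417) and 607 CPM (589.8 to 624), and lower again in the erythroid class, at 217 (202 to 232) and 325 CPM (304 to 349). In each library these 3 intervals followed each other without overlap, and each of the 3 classes was higher in *stag2b*-/- than in wild type. Endothelial cells with a further gate followed at 178 (168 to 188) and 268 CPM (256 to 280.1), and erythroid cells with a further gate at 24.0 and 54.8 CPM. Lateral mesoderm held 18.8 (12.9 to 26.3) and 11.8 CPM (7.23 to 18.3). These intervals overlapped those of intermediate mesoderm, at 8.13 (4.06 to 14.6) and 15 CPM (10.5 to 20.8). Every class of paraxial, neural, axial or epidermal cells had at most 3.32 CPM in either library. Even so, *fli1a* was higher in *stag2b*-/- with intervals apart in neural (0.576 and 1.56 CPM), epidermal (0.907 and 3.32) and posterior paraxial cells (0.945 and 2.40). Intervals overlapped in somite and axial cells, the latter being lower in *stag2b*-/-. All cells outside blood and endothelium held 1.35 and 2.46 CPM, so the higher level was not limited to vascular and blood classes. Free RNA as its source was not tested. The endothelial class stood 2.31-fold above the erythroid class in wild type (2.10 to 2.54) and 2.05-fold in *stag2b*-/- (1.88 to 2.25), while for *cdh5* these folds were 45.2 and 99.1.

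The draculin family gene *drll.2* had another order. It was highest in the erythroid class, at 563 CPM in wild type (539 to 588) and 1009.8 CPM in *stag2b*-/- (971 to 1049.9), and in wild type this interval overlapped that of cells of both gates, at 541 CPM (524 to 558). In *stag2b*-/- the cells of both gates lay below the erythroid class, at 808 CPM (788 to 828). In the endothelial class *drll.2* stood at 125 (109.5 to 142) and 109 CPM (94.9 to 125), where the libraries overlapped. Erythroid cells with a further gate held 47.4 CPM in wild type (42.1 to 53.2), below the endothelial class, and 146 CPM in *stag2b*-/- (137 to 155), above it. Endothelial cells with a further gate held 22.4 and 26.7 CPM and the lateral mesoderm 9.66 and 9.46 CPM. The erythroid class was thus 4.51-fold (3.94 to 5.18) above the endothelial class in wild type and 9.26-fold (8.06 to 10.7) in *stag2b*-/-. Of the 6 genes only *drll.2* was higher in the erythroid class than in the endothelial class.

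The VEGF receptor gene *kdrl* was highest in the endothelial class, at 121 CPM in wild type (106 to 137) and 117 CPM in *stag2b*-/- (102 to 133). Second in wild type was the lateral mesoderm class, at 54.0 CPM (43.7 to 66.0), ahead of the endothelial cells with a further gate, at 34.6 (30.2 to 39.3), and of those with the erythroid gate, at 30.6 CPM (26.8 to 34.9), which overlapped each other. In *stag2b*-/- the endothelial cells with a further gate came second, at 30.7 CPM (26.8 to 35.1), and lateral mesoderm stood at 20.1 CPM (13.9 to 28.1), which overlapped them and also the cells of both gates at 15.9 CPM (13.2 to 18.8). The erythroid class held 2 UMIs in wild type and 1 in *stag2b*-/-, so the receptor gene was near its detection limit there. Outside blood and vessels *kdrl* was also found in intermediate mesoderm, axial midline and neural cells, at 17.7, 12.8 and 5.33 CPM in wild type and 11.2, 4.89 and 3.51 CPM in *stag2b*-/-.

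The other receptor gene, *tie1*, had few UMIs and 2 places of expression. In the endothelial class its wild-type level was 106 CPM (92.3 to 122) against 57.8 CPM in *stag2b*-/- (47.7 to 69.4), and these intervals did not overlap. Endothelial cells with a further gate came next, at 26.2 (22.4 to 30.4) and 17.3 CPM (14.3 to 20.6). In cells of both gates *tie1* stood at 15.7 (12.9 to 18.8) and 2.58 CPM (1.60 to 3.94), and in the erythroid class 1 and 0 UMIs were counted, the latter allowing up to 1.195 CPM. The second place was the axial midline class, at 13.4 (11.6 to 15.4) and 7.07 CPM (5.62 to 8.79), described below. The other classes without the endothelial gate had at most 0.419 CPM in either library, and lateral mesoderm held no *tie1* UMI, which allows up to 1.71 and 1.77 CPM.

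The junction gene *cdh5* was the most restricted of the 6. Its endothelial level was 224 CPM in wild type (203 to 246) and 276 CPM in *stag2b*-/- (254 to 301), and all cells outside blood and endothelium together held 30 and 51 UMIs, or 0.125 and 0.178 CPM. Endothelial cells with a further gate stood at 69.1 and 76.8 CPM and those with the erythroid gate at 69.3 and 51.4 CPM, so that these classes overlapped in wild type (63.0 to 75.7 and 63.4 to 75.6) and not in *stag2b*-/- (70.5 to 83.6 and 46.6 to 56.5). The secreted factor gene *egfl7* was as high in the endothelial class of both libraries, at 481 (451 to 513) and 478 CPM (448 to 509.7). Endothelial cells with a further gate held 175 and 196 CPM of *egfl7* and those with the erythroid gate 133 and 113 CPM. The erythroid class still held 34.4 (28.7 to 41.0) and 23.9 CPM (18.2 to 30.8), and *egfl7* was found in somite and muscle cells at 5.70 and 4.89 CPM. In lateral mesoderm *egfl7* and *cdh5* each had 0 UMIs in the wild-type library and 1 in the other, unlike *kdrl* and *fli1a*.

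Cells that passed the endothelial gate held 96.6% of all *cdh5* UMIs in wild type and 96.0% in *stag2b*-/-, and 84.3% and 84.7% of those of *egfl7*. For *fli1a* these shares were 80.2% and 81.1%, for *tie1* 67.2% and 71.4%, and for *drll.2* 62.7% and 64.0%. The gene *kdrl* stood apart, since 55.5% of its UMIs in wild type and 48.4% in *stag2b*-/- lay in cells that passed neither the endothelial nor the erythroid gate. Axial midline cells held 27.9% and 22.5% of the *tie1* UMIs.

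**Figure D2:**
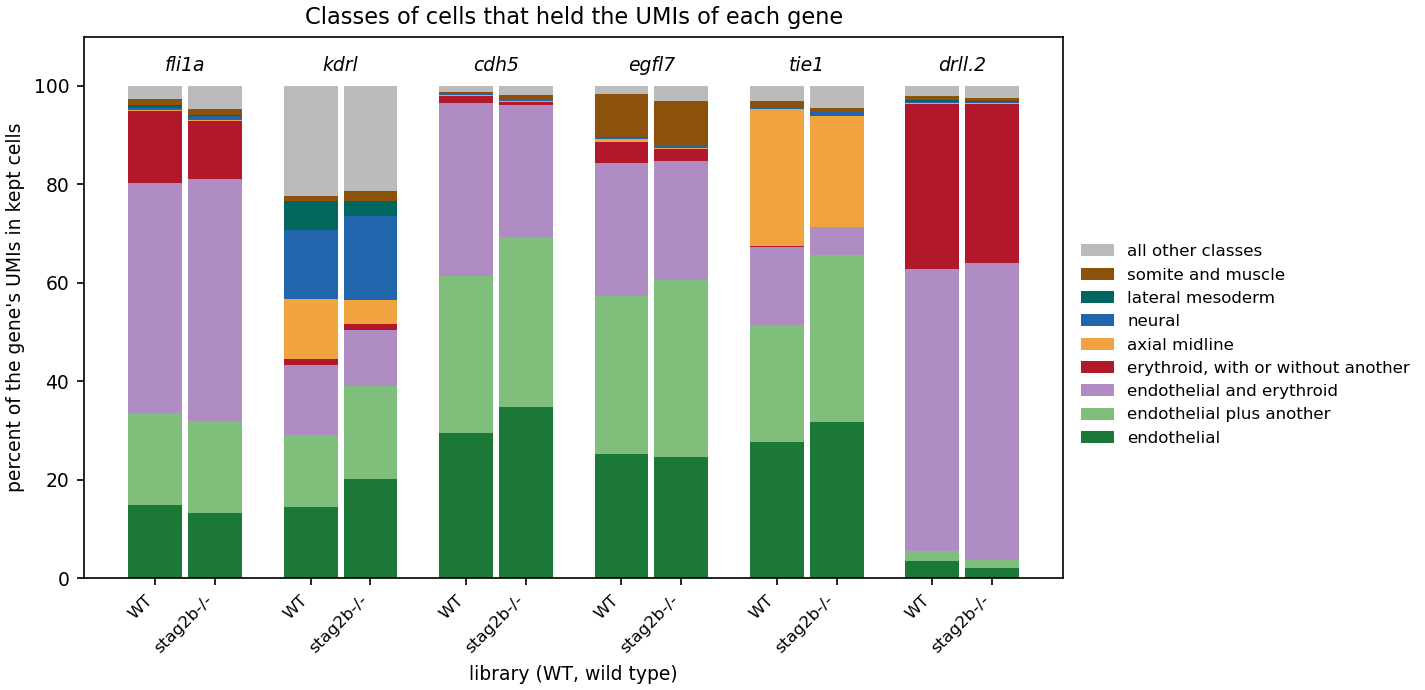
Percent of each gene's UMIs in kept cells (vertical axis) that lay in each class of cells (colors), for wild type and *stag2b*-/- side by side. Nearly all *cdh5* UMIs are in endothelial-gated classes, *drll.2* is mostly in cells that passed the erythroid gate, *kdrl* is spread over many classes, and *tie1* has a large axial midline part.

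Detection per cell was compared after each cell had been thinned to 5000 UMIs. In the endothelial class 41 cells of the wild type and 29 of the mutant were too shallow for this. There a *fli1a* UMI was found in 69.5% (60.8 to 77.2%) of the wild-type and 68.8% (60.5 to 76.3%) of the mutant cells, and 55.0% and 53.9% had one of *egfl7*. For *tie1* the shares were 29.8% (22.1 to 38.4%) and 17.0% (11.2 to 24.3%), which overlapped. Without thinning the shares were 38.4% and 25.3% for *tie1*, 68.6% and 72.9% for *fli1a* and 53.5% and 52.9% for *egfl7*. Epidermal cells, which should lack these genes, had a UMI of each in at most 1.17% of thinned cells. Their median depths before thinning were 19697 and 15330.5 UMIs, against 8057.5 and 12380 in the endothelial class. Without thinning the largest epidermal share was 4.93%, that of *fli1a* in *stag2b*-/-. After thinning, the share of cells with *kdrl* was above the epidermal background in lateral mesoderm, at 20.9% (13.7 to 29.7%) and 8.26% (4.03 to 14.7%), beside 0.475% and 0.829% in epidermis. Without thinning it was 38.7% and 17.6% at median depths of 15135 and 12654 UMIs, beside 2.87% and 2.63% in epidermis. In the erythroid class 77.8% and 91.6% of cells had *drll.2* and 53.8% and 69.3% *fli1a*, and without thinning 84.4% and 94.1% had *drll.2* and 65.3% and 71.8% *fli1a*.

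In the endothelial class only part of the cells had the 6 genes together. Of 131 wild-type cells deep enough to be thinned, 32 had none of the 6 and 12 had all of them, and of 141 *stag2b*-/- cells these numbers were 36 and 5. At least 4 of the 6 genes were found in 35.1% and 34.8% of these cells, and at least 5 in 24.4% and 14.9%. All 6 were also found in 6 and 2 thinned cells of both gates, and in 4 and 2 endothelial cells with a further gate. In the erythroid class a pair of the 6 genes was the commonest number, and no cell had 5 or more. Over all thinned cells that passed the endothelial gate, with or without a further gate, *tie1* was the least often found, mostly in cells that also had *fli1a* and *egfl7*. Of 85 such wild-type cells with *tie1*, 96.5% also had *fli1a*, 92.9% *egfl7*, 78.8% *cdh5* and 55.3% *kdrl*, against 57.8%, 34.1%, 20.05% and 12.03% of all 823 cells. In cells with *drll.2* the share with *kdrl*, 14.96% in wild type and 9.53% in *stag2b*-/-, stood beside 12.03% and 10.1% of all cells.

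**Figure D3:**
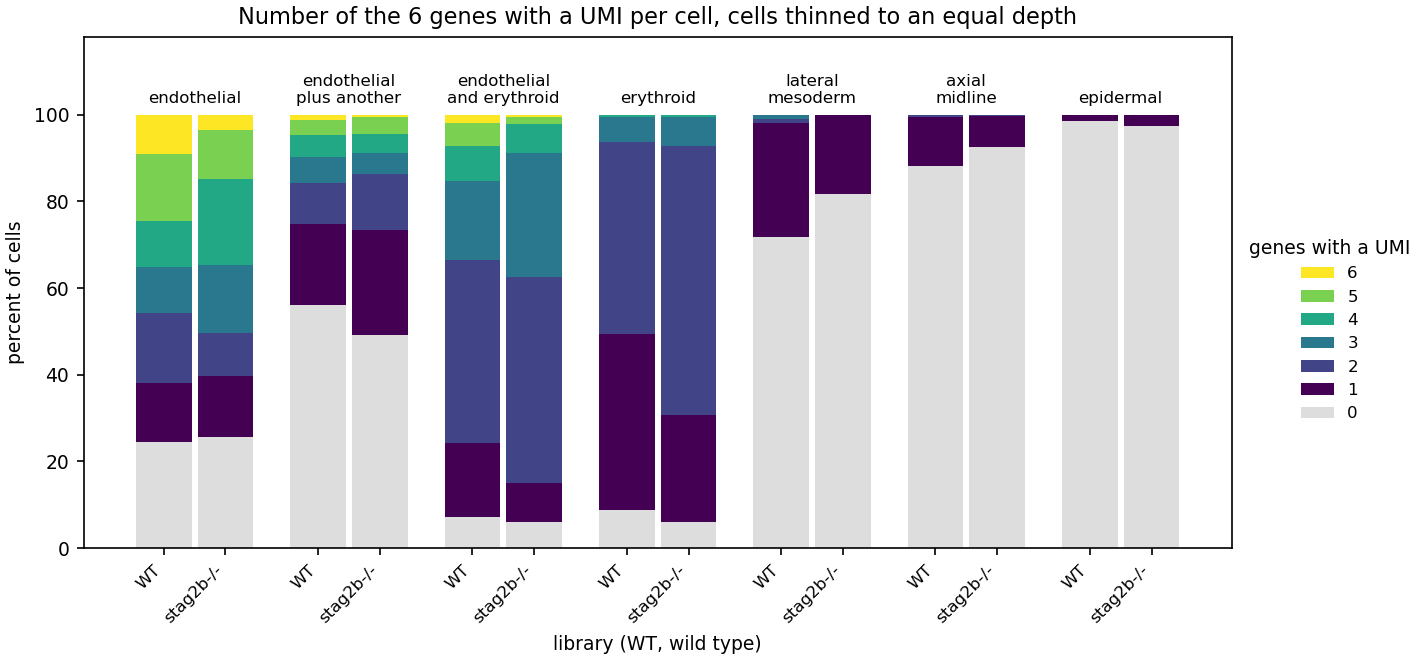
Percent of cells (vertical axis) with 0 to 6 of the 6 genes detected (colors), in 7 classes and both libraries, after thinning each cell to an equal depth. Cells with 4 or more genes are most frequent in the endothelial class, erythroid cells mostly have 1 or 2, and epidermal cells nearly always 0.

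Between the libraries, the endothelial class showed 1 of the 6 genes past the 1.5-fold limit. All 6 passed the minimum of 50 CPM in the higher library. The receptor gene *tie1* was lower in *stag2b*-/-, with 202 UMIs counted in wild-type cells against 114 in mutant cells and a ratio of −0.88 (−1.23 to −0.54), and none of the 6 was past the limit upward. Of all 3070 genes tested in this class, 6.48% were lower and 10.5% higher by that fold, and 1 of 6 genes is too few to set against these shares. The ratios of *fli1a* and *cdh5* were above 0, at 0.42 (0.30 to 0.54) and 0.30 (0.12 to 0.49), the latter with an interval that spanned 0 after TMM scaling (−0.037 to 0.33). Those of *egfl7*, *kdrl* and *drll.2* spanned 0, at −0.0092 (−0.14 to 0.12), −0.050 (−0.32 to 0.22) and −0.20 (−0.47 to 0.076). After TMM scaling those of *egfl7* and *drll.2* lay below 0, at −0.16 (−0.30 to −0.031) and −0.35 (−0.62 to −0.079). The median over the 6 genes was −0.029, beside 0.060 over all genes tested. The gate gene *etv2* had a log2 ratio of −0.59 in the same cells, and their median depth was higher in *stag2b*-/-; the part of either in these ratios was not tested.

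In cells of both gates 4 of the 6 genes passed the minimum. Here *fli1a* was past the limit upward, at 0.59 (0.53 to 0.66), and *drll.2* just inside it, at 0.58 (0.52 to 0.64), where 7.46% of all genes were higher by that fold and 4.91% lower. After TMM scaling *fli1a* fell inside the limit as well, at 0.44. These ratios rest on 3970 and 6574 UMIs of *drll.2* and 2957 and 4937 of *fli1a*. The adhesion and signaling genes went the other way in the same cells. The log2 ratio of *cdh5* was −0.43 (−0.62 to −0.24) and that of *egfl7* −0.23 (−0.36 to −0.10). The receptor genes had fewer UMIs and were under the minimum, *kdrl* with 225 and 129 UMIs at −0.95 (−1.27 to −0.63), and *tie1* with 115 and 21 UMIs at −2.60 (−3.35 to −1.92). In these cells *etv2* also had a lower level in *stag2b*-/- (−0.99) while the erythroid gate genes *gata1a* and *klf17* were at 0.20 and 0.28, and the part of these shifts was not tested.

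In the erythroid class *drll.2* and *fli1a* were the genes above the minimum, and both were past the limit upward, at 0.84 (0.76 to 0.93) and 0.59 (0.45 to 0.73). Of all genes tested there 7.91% were. After TMM scaling *drll.2* remained past it, at 0.69, and *fli1a* did not, at 0.44. The globins were at a lower level in *stag2b*-/- in this class, as given above, while the ratios of the gate genes *gata1a* and *klf17* were 0.20 and 0.093. The part of the globin shift in these ratios was not tested. The gene *egfl7*, under the minimum, had a log2 ratio of −0.53 (−0.996 to −0.071). In endothelial cells with a further gate *fli1a* was past the limit upward again, at 0.59 (0.49 to 0.70), against 8% of all genes, and after TMM scaling it was inside, at 0.42. Ratios of *cdh5* and *egfl7* there were 0.15 (−0.029 to 0.34) and 0.17 (0.052 to 0.28), and with TMM scaling both turned to just below 0, at −0.020 (−0.20 to 0.16) and −0.0080 (−0.12 to 0.11), with intervals that spanned 0. The gene *tie1*, under the minimum, was again lower, at −0.60 (−0.95 to −0.26). In erythroid cells with a further gate *drll.2* and *fli1a* were past the limit upward with ratios of 1.62 (1.43 to 1.81) and 1.19 (0.91 to 1.47), where 7.71% of all genes were past the limit upward. There both genes passed the minimum in the *stag2b*-/- library alone. From wild type to *stag2b*-/-, *drll.2* stood at 47.4 and 146 CPM and *fli1a* at 24.0 and 54.8 CPM. The gate gene *gata1a* had a ratio of 1.19 in the same cells, whose part was not tested. Outside the vascular and blood classes *fli1a* was under the minimum. Its ratio was 1.44 (0.77 to 2.15) in neural cells, from 24 and 87 UMIs. It spanned 0 in somite and muscle cells (0.25), axial midline cells (−0.36) and lateral mesoderm (−0.67).

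**Figure D4:**
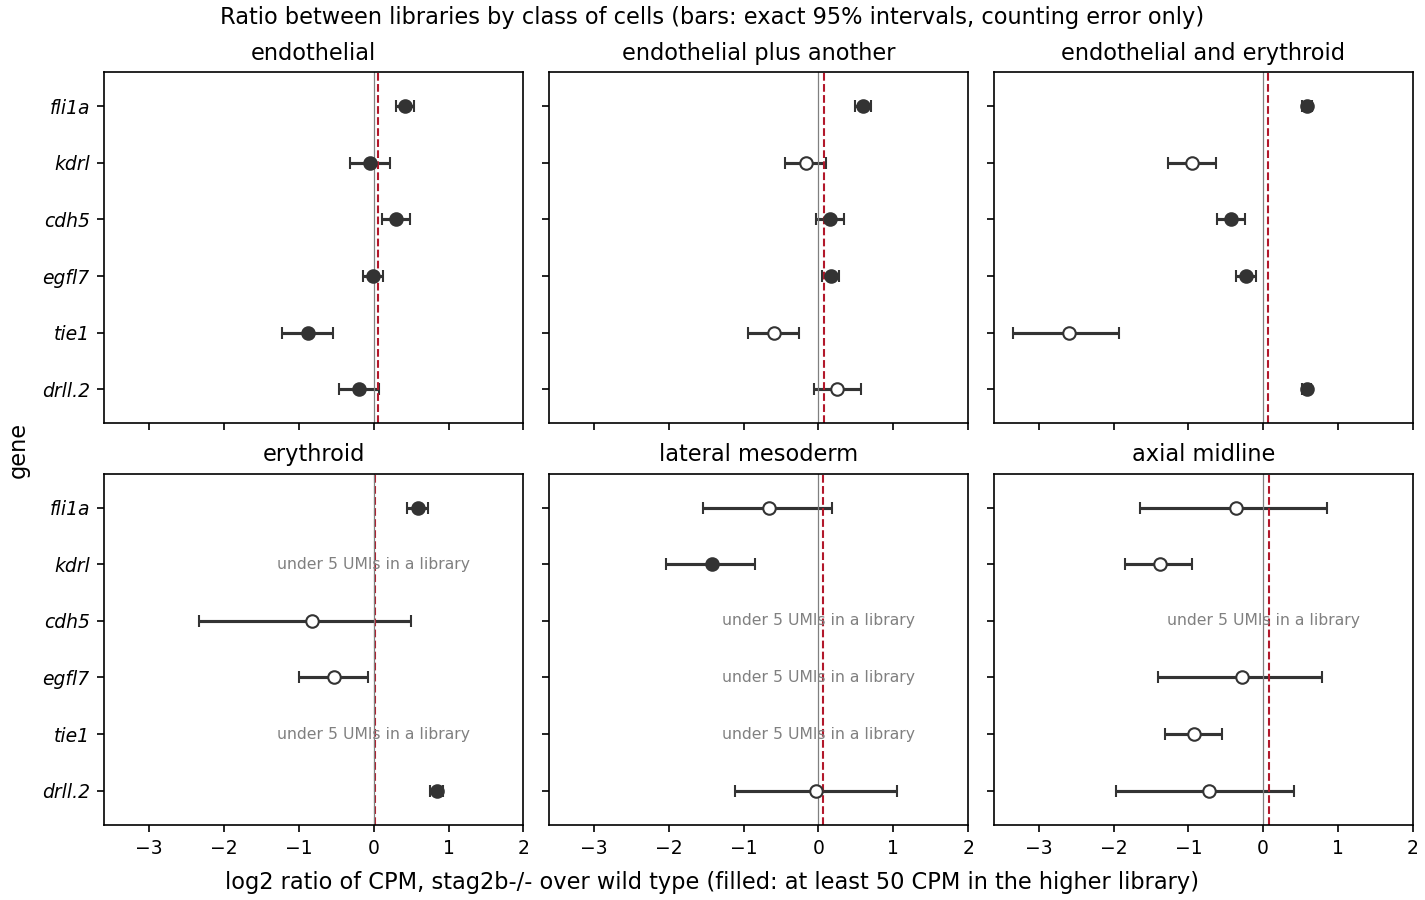
Log2 ratio of CPM, *stag2b*-/- over wild type (horizontal axis), for the 6 genes in 6 classes of cells. Points are ratios, bars exact 95% intervals for counting error, filled points genes of at least 50 CPM in the higher library, and the dashed line the median gene; *tie1* lies to the left where it was counted, and *fli1a* to the right in the 4 vascular and blood classes.

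Levels were then read along the UMIs of *etv2* in thinned cells that passed the endothelial gate and not the erythroid gate. In wild type *cdh5* stood at 24.5 CPM in cells with 1 to 4 *etv2* UMIs, at 126 CPM with 5 to 14 and at 185 CPM with 15 or more, and in *stag2b*-/- at 30.8, 158 and 256 CPM. The other 5 genes had the same order over these groups in both libraries. In cells with no *etv2* UMI *drll.2* stood at 56 (30.6 to 94.0) and 44.1 CPM (24.7 to 72.8), which in wild type was above the group with 1 to 4, at 12.3 CPM (5.88 to 22.6). Within the highest group *fli1a* was higher in *stag2b*-/-, at 794 (726 to 866) against 519.8 CPM (471 to 572), and *tie1* lower with overlapping intervals, at 54.0 (37.4 to 75.4) against 76.5 CPM (58.7 to 98.1). The highest group held 126 *stag2b*-/- and 162 wild-type cells, beside 214 and 163 with 1 to 4 UMIs.

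Along the UMIs of the erythroid gate, over thinned cells of the endothelial and erythroid gates, the 6 genes separated. In wild type, cells with 0 such UMIs held 100 CPM of *cdh5* (87.8 to 113) and 53.9 CPM of *drll.2* (45.1 to 64.0). All of the 6 genes but *drll.2* were highest in the wild-type cells with 1 or 2 such UMIs. From that group on, *cdh5* went from 196 CPM to 26.7 CPM with 3 to 5 and 15.4 CPM with 6 or more. Over the same groups *drll.2* went from 254 to 430.5 and 649 CPM. The gene *fli1a* went from 477 to 219 and 315 CPM in wild type, and from 505 to 522 and 528 CPM in *stag2b*-/-, so that the first pair of intervals was apart in wild type (417 to 545 and 181 to 263) and overlapped in *stag2b*-/- (446 to 569 and 465 to 585). In the group with 1 or 2 UMIs *tie1*, *cdh5* and *egfl7* were lower in *stag2b*-/- with intervals apart. There *tie1* stood at 71.0 CPM in wild type (48.9 to 99.7) and 13.1 in *stag2b*-/- (5.26 to 27.0), *cdh5* at 196 (158 to 240.3) and 118 (90.5 to 151), and *egfl7* at 338 (287 to 395) and 200 (164 to 242). This group held 93 and 107 cells, and *etv2*, whose part was not tested, stood at 1703 CPM among its wild-type and 889.7 CPM among its mutant cells. In the next group, with 3 to 5 UMIs, the values of *cdh5*, *kdrl* and *egfl7* were higher in *stag2b*-/-, and for *egfl7* the intervals, 59.3 to 110.3 and 105 to 166 CPM, overlapped slightly.

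**Figure D5:**
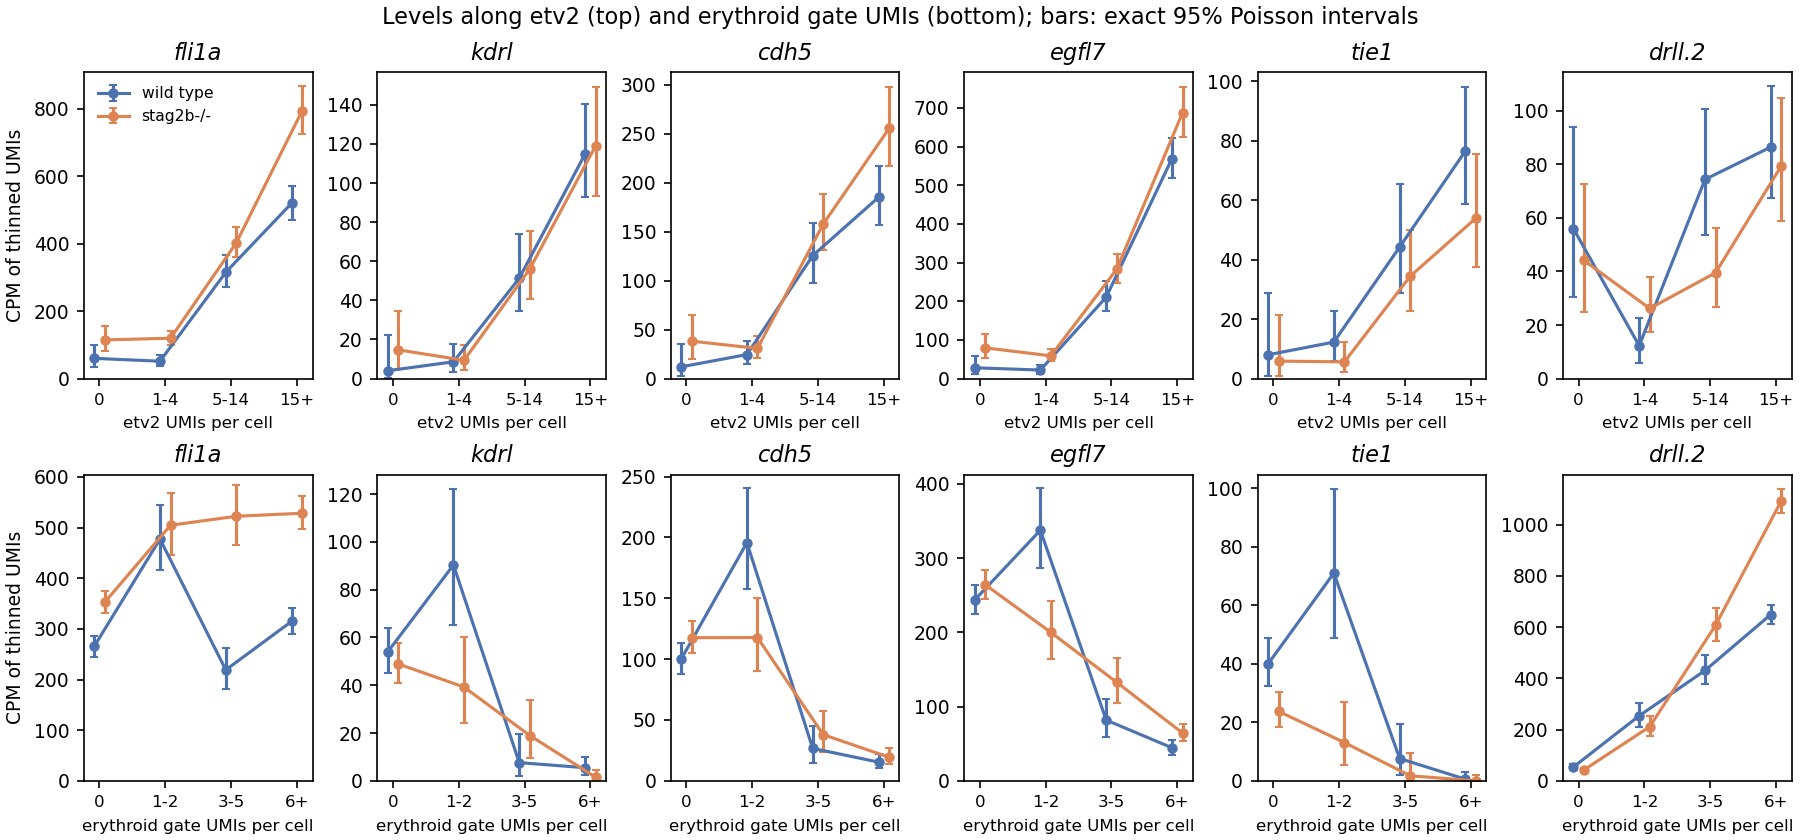
CPM of the 6 genes (vertical axes, each from 0) in thinned cells grouped by *etv2* UMIs (top row) and by UMIs of the erythroid gate genes (bottom row), wild type in blue and *stag2b*-/- in orange, with exact 95% Poisson intervals. The 6 genes are highest in cells with the most *etv2*, and *drll.2* alone is highest in cells with the most erythroid UMIs in both libraries.

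Outside the vessels the *tie1* UMIs of the axial midline class lay in a small set of cells. In wild type 86 of 1069 axial cells had *tie1* and 52 had 2 or more UMIs, and in *stag2b*-/- 49 of 845 and 19. In thinned axial cells *tie1* stood at 2.91 CPM where no UMI of 4 hypochord genes (*gdf6a*, *ccn2a*, *hapln1a* and *cdh6*) was found and at 76.0 CPM (55.7 to 101) where 5 or more were found, and in *stag2b*-/- at 1.06 and 25.3 CPM (15.3 to 39.6). The hypochord is a rod of cells under the notochord that lies next to the forming dorsal aorta. The cells with 2 or more *tie1* UMIs were led by *sept9a* and by the midline hedgehog gene *shhb*, which is one of the axial gate genes, *shhb* at 361 CPM against 39.4 in axial cells without *tie1* in wild type and 285 against 40.2 in *stag2b*-/-. They were also high in *cdh6*, at 943 against 117 and 1152 against 233 CPM, and in *pdgfrb*, at 229 against 12.6 and 348 against 60.3 CPM. The gene *cdh6* belongs to the 4 hypochord genes of the grouping above, so its level here is not independent of that grouping. The hypochord genes *gdf6a*, *ccn2a* and *hapln1a* were not among the leading genes of these cells. In the whole axial class *cdh5* had 2 and 3 UMIs, so the gene most restricted to endothelium was near 0. The *tie1* ratio of the axial class was −0.92 (−1.31 to −0.55), under the minimum of CPM, while *noto*, a notochord gene of the gate, stood at 1139 and 603 CPM. The part of this shift within the class in the *tie1* ratio was not tested.

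The *kdrl* UMIs of non-vascular cells came from several classes. In neural cells 191 of 2768 wild-type and 177 of 3943 *stag2b*-/- cells had *kdrl*. Those with 2 or more UMIs were high in *tbxta*, the Brachyury gene of the tailbud, at 315 against 49.3 CPM in wild type and 261 against 50.9 CPM in *stag2b*-/-, and in *cyp26a1*, which encodes a retinoic acid-degrading enzyme, at 153 against 19.2 and 137 against 28.6 CPM. Only 24 and 17 cells were in these groups. In lateral mesoderm the *kdrl* cells were high in the epithelial genes *epcam* and *cldnb*, *epcam* at 86.9 against 9.39 CPM in wild type and 240.3 against 2.22 CPM in *stag2b*-/-, with 28 and 8 cells of 2 or more *kdrl* UMIs. Between the libraries *kdrl* was the only one of the 6 to reach the minimum in lateral mesoderm, and it was past the limit downward, with 95 and 34 UMIs and a ratio of −1.43 (−2.04 to −0.85), where 7.25% of all genes were. It passed the minimum in the wild-type library alone. In axial midline cells its ratio was −1.38 (−1.84 to −0.95) and in neural cells −0.60 (−0.88 to −0.32), both under the minimum, against −0.050 in the endothelial class.

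The *egfl7* UMIs of somite and muscle cells numbered 319 in wild type and 344 in *stag2b*-/-, in 208 of 3249 and 268 of 4883 cells. After thinning, 2.54% (2.02 to 3.15%) and 2.22% (1.81 to 2.68%) of these cells had *egfl7*, against 0.0792% and 0.138% of epidermal cells. Cells with 2 or more UMIs were high in *uncx4.1*, a gene of the posterior part of each somite, at 125 against 13 CPM in wild type and 106 against 13.5 CPM in *stag2b*-/-. The transcription factor gene *mafbb* was also high in them, at 172 against 24.3 and 328 against 37.1 CPM. In somite and muscle cells *cdh5* had 4 and 12 UMIs and *tie1* 9 and 3, both near their limit of detection. The *egfl7* ratio between the libraries in these cells was −0.22 (−0.45 to 0.0022), under the minimum.

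The gene *drll.2* lies in a cluster with the related genes *drll.3*, *drl* and *drll.1*, its neighbours in the RefSeq annotation, of which *drl* and *drll.1* were lower in *stag2b*-/-. In the erythroid class *drl* stood at 754 CPM and, in the mutant, at 358 CPM, with a ratio of −1.08 (−1.19 to −0.97), and *drll.1* at 502 and 272 CPM, −0.88 (−1.01 to −0.76), against 0.84 for *drll.2*. In cells of both gates the ratios were −1.08 (−1.15 to −1.01) for *drl*, −0.93 (−1.02 to −0.85) for *drll.1* and 0.58 for *drll.2*. The ratios of the endothelial class were, for *drl*, −1.83 (−2.17 to −1.50), for *drll.1* −1.74 (−2.23 to −1.26) and for *drll.2* −0.20. The level of *drll.3* was low, at 25.1 and 35.1 CPM in the erythroid class. TMM scaling left the sign of *drl*, *drll.1* and *drll.2* as it was in these 3 classes. How reads that fit several members of this family were counted is not given in the sources used here, so a shift of reads between the related genes cannot be told apart from a difference in their transcripts.

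Other genes of the vascular program were described from 6 lists of 47 genes, all of which are in the files, of precursor transcription factors, growth factor receptors, the Notch pathway, adhesion and matrix, clearance receptors and ligands. In the endothelial class 20 of them passed the minimum of CPM. Of these, 5 were past the limit downward in *stag2b*-/-, against the 6.48% of all genes given above, and 0 upward. They were *mrc1a*, a mannose receptor of clearance endothelium, at −1.40 (−1.77 to −1.04), the tight junction gene *cldn5b* at −0.96 (−1.40 to −0.53), the matrix gene *mmrn2a* at −0.77 (−1.10 to −0.45), and the transcription factor genes *tal1* and *hhex* at −0.68 and −0.62. Of these *mrc1a*, *cldn5b* and *hhex* passed the minimum in the wild-type library alone. The precursor factor gene *lmo2* was just inside the limit, at −0.55 (−0.59 to −0.51), and the TMM shift of this class carries it past the limit. With the cells of a further gate added, 15 passed the minimum and 0 were past the limit, beside 4.31% of all genes lower and 7.61% higher. There *mrc1a*, *cldn5b* and *mmrn2a* were under the minimum, at −1.21, −0.56 and −0.68, and *tal1* was inside the limit, at −0.53. The VEGF receptor genes *flt4* and *flt1* had ratios of 0.52 (0.36 to 0.67) and 0.41 (0.18 to 0.63) in the endothelial class, unlike *tie1*. The median over the genes of all lists that passed was −0.25 in that class, beside 0.060 over all genes. With the cells of a further gate added the median was 0.021, beside 0.070 over all genes. Of the erythroid check genes, none of 11 passed the minimum in the endothelial class, though *hbbe3* stood at 48.5 and 5.58 CPM. Of 4 hypochord check genes 3 passed the minimum, and *cdh6* and *hapln1a* were past the limit upward, at 1.51 and 0.84, beside 10.5% of all genes. For *hapln1a* the minimum was passed in the *stag2b*-/- library alone. With the cells of a further gate added, *hapln1a* was under the minimum, at 0.014, while *cdh6* stayed past the limit upward, at 1.13. Outside blood and endothelium *cdh6* was also higher in *stag2b*-/-, at 111 against 71.4 CPM. Of 6 myeloid check genes only *cebpa* passed the minimum, with 75.4 and 40.6 CPM. It was past the limit downward, beside 6.48% of all genes. These lists are too short to set against the shares of all genes.

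Across the 13 classes of both libraries, the genes with the most similar profiles differed among the 6. By Pearson's correlation of log2(CPM + 10) over these 26 points, among 3070 genes of the endothelial class, *fli1a* was nearest to *tal1* (r = 0.979) and *lmo2* (0.969), both of endothelial and blood precursors. The vessel genes *cdh5* and *egfl7* shared *fgd5a* and *coro2ba* among their 3 nearest, with r between 0.985 and 0.992, and *tie1* was nearest to *scarf1* (0.945), *gpr182* (0.942) and *cldn5b* (0.942). The nearest genes to *drll.2* were *glcci1a* (0.979), *cebpa* (0.976) and *cldng* (0.970), and those to *kdrl* were *marcksl1a* (0.912), *mafa* (0.898) and the protocadherin gene *pcdh12* (0.895). Among the 6 themselves *cdh5* and *egfl7* were closest (0.976) and *drll.2* and *kdrl* farthest apart (0.228). The classes share their libraries and differ in depth, so these values describe the profiles only. The nearest genes depend on the pseudocount, since with 1 CPM in place of 10 only 8 of the 18 nearest genes were shared.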

How the data were processed

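Single-cell RNA-seq libraries were made in droplets from dissociated tailbuds of wild-type and *stag2b*-/- embryos. The authors aligned the reads with Cell Ranger 7.1.0 to GRCz11 and deposited filtered matrices of whole-number UMI counts per gene and cell, 1 per genotype, intronic reads included per the methods. The reference sets here carry another build, so no gene coordinates are given. From these counts, cells under 200 genes, above the 98th percentile of genes or over 15% mitochondrial UMIs were left out, and doublets were called with Scrublet (Scanpy 1.11.5) in place of the caller used in the study. Free RNA was not corrected. Cells were gated by raw UMIs, with cells passing several gates set apart, counts were summed per class, and intervals at 95% were computed with scipy 1.17.1, numpy 2.4.6 and pandas 2.3.3 in Python 3.11.15. TMM factors came from edgeR 4.0.16, used for scaling only. The limit allowed by 0 UMIs was 3 counts of the class total. Only the log2 ratio and its interval were tested on simulated data, with counts drawn under counting error alone. The summing and gating steps and the intervals of levels and shares were not tested in this way. With 1 library per genotype no test was run.

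The members, gates and gene lists were chosen with earlier results of these data known. Genes named were the 6 members, the 3 genes most similar to each, genes of the lists of at least 50 CPM past 1.5-fold (up to 4 each way), gate genes and *stag2b*. Named after their values were seen were *flt4*, *flt1*, *hhex*, *hbbe3*, *notch1b*, *lmo2* as a list gene and the leading genes of non-vascular cells, which are those with the largest log2 difference, with 20 CPM added, between cells with 2 or more UMIs of a member and cells with none. The groupings by *etv2*, erythroid, hypochord and paraxial UMIs and the comparison of draculin genes were also chosen after seeing the data. The gate gene *etsrp* and the list gene *drll.4* did not match a symbol in the counts used here, and *hbae1.3*, with 2 rows, was used only in the sum of globins. Alternatives covered doublet calls, the mitochondrial limit, the gate's threshold and genes, thinning, the mean over cells, TMM factors, the handling of cells with several gates, a globin gate, the minimum of CPM and the pseudocount.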

Additional observations from a re-analysis of the deposited data

Results flagged for a closer look

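The ratio of *cdh5* pointed in opposite directions in 2 classes that pass the endothelial gate. It was 0.30 on the log2 scale (0.12 to 0.49) in the endothelial class and −0.43 (−0.62 to −0.24) in cells that also passed the erythroid gate, and with TMM factors 0.15 (−0.037 to 0.33) and −0.58 (−0.77 to −0.39). The difference between the classes was not tested, since each genotype has 1 library. In the latter cells the gate gene *etv2* had a log2 ratio of −0.99, and its part was not tested.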

How the results depend on the processing

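No paired analysis was possible because each genotype has 1 library. The log2 ratio of *tie1* in endothelial-gated cells was lower by more than 1.5-fold under all 12 alternatives, between −1.05 and −0.67. In the wider sets of cells described below, however, *tie1* was under the minimum of CPM and does not count as past the limit. Its higher level, that of wild type, was 30.9 CPM over all cells that pass the endothelial gate. Over those outside the erythroid gate it was 43.9 CPM. The ratio of −1.05 came from the former set. None of the other 5 genes differed by 1.5-fold under any alternative. Relative to the values reported, *fli1a* moved to 0.55 and *egfl7* to 0.18 with at most 5% mitochondrial UMIs, and to 0.58 and 0.16 with a gate without *etv2*. With the mean over cells of depth-scaled counts *kdrl* moved to 0.37 and *egfl7* to 0.13. With TMM factors *fli1a* moved to 0.27 and *egfl7* to −0.16. With all cells that pass the endothelial gate, *fli1a* moved to 0.57, *kdrl* to −0.36, *cdh5* to 0.00029 and *drll.2* to 0.57. This setting adds both the cells of the erythroid gate and those with a further gate, and with only the latter added, a setting chosen after seeing the data, the values were 0.51, −0.12, 0.22 and −0.013. The causes were not tested.

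The share of cells that passed the endothelial gate, in wild type and *stag2b*-/-, was 6.09% and 5.35% with at least 2 UMIs, 3.68% and 3.11% with 6, 3.31% and 2.83% without *etv2*, 4.59% and 4.04% without *sox7* and *sox18*, 3.01% and 2.86% in thinned cells and, in a setting chosen after seeing the data, 3.11% and 2.57% without the cells of the erythroid gate. With called doublets kept it was 4.91% in *stag2b*-/-. An erythroid gate of at least 100 globin UMIs gave 0 CPM of *kdrl*, 2.55 of *cdh5* and 599.7 of *drll.2* in wild type and 16.9 of *egfl7* and 1178 of *drll.2* in *stag2b*-/-. Without thinning *tie1* was found in 25.3% and *drll.2* in 40.6% of endothelial *stag2b*-/- cells. With a minimum of 20 CPM the other vascular genes past the limit downward numbered 7 in place of 5. Those past it upward numbered 1 in place of 0, *notch1b* at 0.76. The share of all genes past the limit at a minimum of 20 CPM is not given here, so these counts cannot be set against it. With a pseudocount of 1 CPM 8 of the 18 most similar genes were shared.

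With few cells per class, the receptor genes rest on few UMIs, 202 and 114 for *tie1* in the endothelial class. Depth, cell number and genotype differ together between the libraries.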

Other observations

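In cells that passed the endothelial gate and not the erythroid gate, the 6 genes were also read along the UMIs of the posterior paraxial mesoderm genes, a grouping chosen after seeing the data. In thinned wild-type cells *kdrl* stood at 91.8 CPM (73.2 to 114) where no such UMI was found, at 47.0 CPM with 1 to 4 and at 14.1 CPM (7.04 to 25.2) with 5 or more, and in *stag2b*-/- at 99.5 (80.7 to 121), 41.8 and 4.61 CPM (1.496 to 10.8). The gene *egfl7* went from 391 to 66.7 CPM in wild type and from 440 to 100.5 CPM in *stag2b*-/- between the same end groups, and *fli1a* from 416 to 124 and from 541 to 169 CPM. The end groups with 5 or more held 156 and 217 cells. Free RNA or pairs of cells in 1 droplet as sources of the paraxial UMIs were not tested.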
